A study of Mus musculus with 18 samples.

Results

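The response of FOXS1 KO clone 1 to stimulation was taken from 6 of the 18 libraries of the series, the 3 libraries of stimulated clone 1 cells and the 3 libraries of uninduced clone 1 cells. Log2 fold changes above 0 stand for higher levels after stimulation. The cells were 10T1/2 cells, a multipotent line of mouse fibroblasts that can take on adipogenic and myofibroblast features. The series compared WT 10T1/2 cells with FOXS1 KO clone 1 and FOXS1 KO clone 2, each derived by CRISPR-Cas9 editing from a single cell, to ask how loss of the forkhead factor FOXS1 changes the answer to opposing fibrotic and adipogenic stimuli. Each genotype was sampled in 3 libraries uninduced and in 3 libraries stimulated by 12 h of TGF-β1 at 1 nM followed by 48 h of DMII, an adipogenic induction medium named for its dexamethasone, methylxanthine (3-isobutyl-1-methylxanthine), insulin and indomethacin. Clone 1 is 1 clone, so that what belongs to the knockout and what belongs to the clone cannot be told apart. Within the response of clone 1, the effects of TGF-β1, of each component of DMII and of time in culture cannot be told apart either. The methods of the study describe overnight serum starvation before TGF-β1 and adipogenic induction of cells past confluence. Whether uninduced cells shared these steps, and were kept for the same time in the same basal medium, is not given in the sources used here.

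TGF-β1 acts through receptor kinases that phosphorylate SMAD2 and SMAD3, and in fibroblasts it is known for inducing collagens, matrix crosslinking enzymes, contractile proteins and its own feedback inhibitors. Dexamethasone activates the glucocorticoid receptor, the methylxanthine blocks phosphodiesterases and so raises cAMP, insulin acts through the insulin and IGF receptors, and indomethacin inhibits the cyclooxygenases. In adipogenesis, this medium first induces C/EBPβ and C/EBPδ, which then induce C/EBPα and PPARγ, the factors that maintain the adipocyte genes of lipid storage.

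Library totals in clone 1 ran from 16919612 to 17812503 counts uninduced and from 20232140 to 29383944 counts stimulated, within a range of 15576685 to 42005596 over the series, and 14317 genes had enough counts to be tested. Levels are given in CPM, counts per 1000000 counts of the library size scaled by the trimmed mean of M values (TMM), in the order of replicates 1, 2 and 3. The labels do not say that the 3 libraries of a group came from separate cultures, so p-values measure the spread between these libraries, which may be technical. Along the first principal component of the clone 1 libraries, which held 78.0% of the variance, stimulated and uninduced libraries separated. The second held 7.45%, and on it stimulated replicate 3 stood at 35.5, apart from -19.2 and -17.9 of the other stimulated libraries. The fibroblast identity of the cells was checked with 11 markers, whose summed level lay between 27073 and 28292 CPM uninduced and between 48849 and 51510 CPM stimulated. *Col1a1* carried most of that gain, and of the 10 markers tested 1 rose, 3 fell, *Dcn* among them, and 6 were not called (median -0.03). Markers of osteoblasts and chondrocytes summed to no more than 1613 CPM, those of macrophages and leukocytes, almost all of it *Cd14*, to no more than 47.7 CPM, and those of endothelium, skeletal muscle and epithelium to no more than 3.83 CPM in any clone 1 library.

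The targeted gene was read first. *Foxs1* (ENSMUSG00000074676, chromosome 2, 152931898 to 152933208, minus strand, GRCm38) stood at 26.7, 27.1 and 23.4 CPM in uninduced libraries labelled FOXS1 KO clone 1 and at 53.6, 52.9 and 56.8 CPM in stimulated ones. In WT libraries it stood at 1.81, 3.25 and 1.64 CPM uninduced and at 3.13, 2.55 and 1.85 CPM stimulated, so that every library labelled FOXS1 KO clone 1 held more *Foxs1* mRNA than every WT library. A gene count does not show whether the transcript codes for the protein. The study reports loss of FOXS1 protein in both clones by western blot, and its methods describe sequencing of genomic DNA to determine disruption of the locus. Neither is part of these files, and here directions relative to WT rest on the labels. *Foxs1* rose in clone 1 by a log2 fold change of 1.08 (SE 0.115, adjusted p = 3.54e-09, by the quasi-likelihood test of edgeR, Benjamini-Hochberg adjusted). That call was lost when libraries were scaled to their totals (log2 fold change 0.84) and in the test against the fold threshold. The rise in clone 1 exceeded that in WT by 0.89 log2 units, short of the fold threshold.

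One library stood apart in transcripts of another cell type. Uninduced replicate 3 held transcripts of genes that hepatocytes express, such as *Alb*, which codes for serum albumin, and *Apoa1*. The summed level of 14 such genes, chosen after their values were seen, was 143 CPM in that library, where none of the 14 was at 0. In the other 17 libraries the sum lay between 0 and 1.22 CPM, and in the other clone 1 libraries it was 0.820, 0.161, 0.692, 0.627 and 0.319 CPM. That library also held 77 genes above 1 CPM that exceeded each of the other libraries of its group more than 5-fold, against 1 to 4 such genes in each other clone 1 library. Of the 77 genes 13 were tested, and of these 6 were called lower and 3 higher after stimulation. *Alb* stood at 0.512, 0 and 55.6 CPM uninduced and at 0, 0.0737 and 0 CPM stimulated, a call of -9.06 (adjusted p = 0.00638) that became -2.94 (adjusted p = 0.152) by the same edgeR test without uninduced replicate 3. *Apoe*, which codes for a lipid carrier that many cells make, stood at 1.38, 0.858 and 40.1 CPM uninduced and at 0.319, 0.479 and 0.683 CPM stimulated. Its log2 fold change of -4.80 became -1.16 without that library, and a fit of only the groups compared did not call it (adjusted p = 0.139, edgeR). Without it, 2272 genes were called in place of 2391, with 2157 called both ways. The 3 called higher were *Serpina3k*, *Ephx2* and *Slc25a34*, named after their values were seen, and their calls were made without that library as well, whereas of the 6 called lower only *Apoe* was. Apart from *Apoe*, none of the 77 genes is described in the results that follow, and the origin of these transcripts was not tested.

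**Figure D1:**
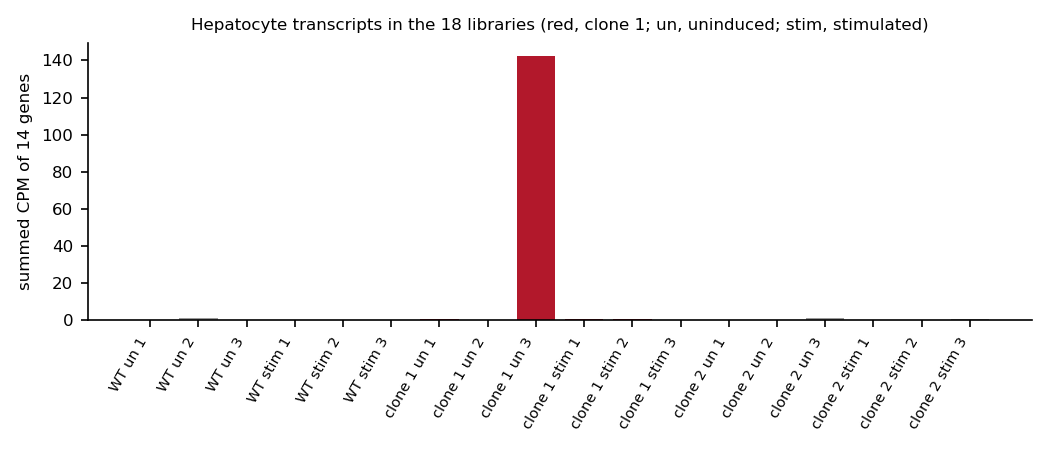
Summed level of 14 hepatocyte genes in each of the 18 libraries, in CPM, 1 bar per library with clone 1 in red. Uninduced replicate 3 of clone 1 stands at 143 CPM, while no other library exceeds 1.22 CPM.

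Stimulation changed 2391 genes in clone 1, 16.7% of the genes tested. A gene was called where its adjusted p was below 0.05 and its level moved by more than 1 log2 unit, and 852 of them rose (5.95% of genes tested) while 1539 fell (10.7%). The median log2 fold change over all genes tested was -0.02. Falls were also more numerous among the deep changes, since 771 genes fell by more than 2 log2 units and 324 rose that far. The fitted fold change of a gene without a count in one group depends on a small added count, and such genes made up 109 of the falls and 22 of the rises. In 2322 of the 2391 called genes the stimulated and uninduced libraries did not overlap, against 61% of all genes tested. With libraries scaled to their totals the median shifted to -0.26, and the split became 617 rises and 2122 falls, so directions are given relative to the TMM scale. Protein-coding genes made up 752 of the rises and 1387 of the falls, and long intergenic noncoding RNA genes 31 and 57.

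**Figure D2:**
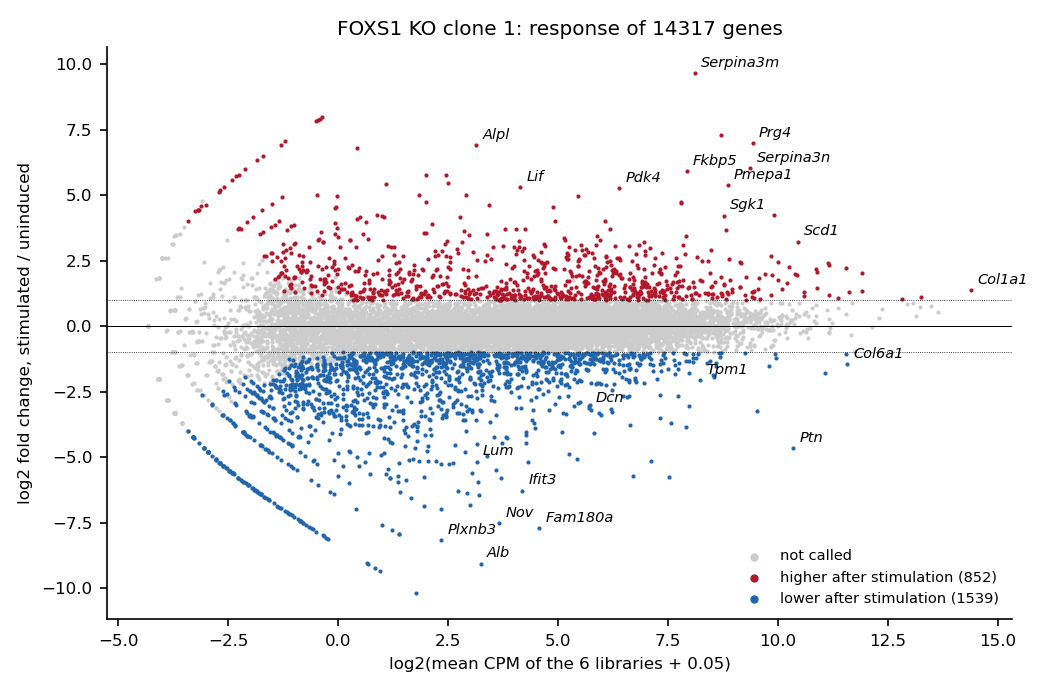
Log2 fold change of each tested gene in clone 1 against its mean level, with the 852 genes that rose in red and the 1539 that fell in blue. The curved edges at low levels are genes with no or few counts in one group, and more of them lie on the side of the falls.

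Secreted proteins and protease inhibitors were among the largest rises. *Serpina3m*, a serine protease inhibitor, stood at 0.563, 0.483 and 0.984 CPM uninduced and at 575, 574 and 508 CPM stimulated (log2 fold change 9.66, SE 0.106, adjusted p = 1.97e-32, edgeR). Its neighbour in the same cluster, *Serpina3n*, stood at 22.8, 16.5 and 20.9 CPM uninduced and at 1371, 1333 and 1209 CPM stimulated (6.02). All stimulated libraries lay far above all uninduced libraries for both, although reads of near-identical *Serpina3* copies may be split between them. The largest rises were picked among genes whose groups did not overlap, so a lack of overlap was given in advance for genes so picked. *Prg4*, which codes for the lubricating proteoglycan lubricin, went from 11.9, 8.96 and 11.4 CPM to 1312, 1409 and 1370 CPM (6.99). *Alpl*, the tissue-nonspecific alkaline phosphatase known from bone, went from 0.102, 0 and 0.311 CPM to 19.2, 16.7 and 16.2 CPM (6.90). *Lif*, a cytokine of the interleukin-6 family, rose by 5.31, from 0.666, 1.13 and 0.777 CPM to 34.9, 37.1 and 30.3 CPM. *Ctla2a*, a member of a multigene family of protease inhibitor-like proteins, rose by 7.30. Measured in CPM gained, the largest rise was that of *Col1a1*, the chain that forms most of collagen I, from 12235, 11420 and 12060 CPM to 30340, 32380 and 30177 CPM (1.38, SE 0.0413, adjusted p = 3.55e-22, edgeR).

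Several genes fell to near 0 or to a small part of their uninduced level. *Nov*, the matricellular protein CCN3, stood at 23.3, 24.7 and 27.4 CPM uninduced and at 0.160, 0.184 and 0.0455 CPM stimulated (log2 fold change -7.51, SE 0.181, adjusted p = 1.89e-24, edgeR). *Plxnb3*, a semaphorin receptor, went from 9.22, 8.15 and 12.7 CPM to 0.0532, 0.0369 and 0 CPM (-8.15). *Cnmd*, chondromodulin, an inhibitor of vessel growth, went from 26.0, 25.5 and 24.2 CPM to 0.373, 0.627 and 0.319 CPM (-5.77). The heparin-binding growth factor pleiotrophin (*Ptn*) went from 2404, 2688 and 2374 CPM to 99.6, 97.6 and 102 CPM (-4.64, SE 0.0594, adjusted p = 3.74e-30, edgeR). All stimulated libraries of these 4 genes lay below every uninduced library. The largest falls were picked among genes whose groups did not overlap, so for genes so picked this separation was given in advance. In bulk RNA, fewer cells that make a transcript and less of it per cell cannot be told apart, here or in any result that follows.

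Genes known to be induced by glucocorticoids rose in clone 1. Of 25 listed genes 23 were tested, and 14 rose (60.9%, against 5.95% of all genes tested), 1 fell and 8 were not called. Counts in each list that follows stand beside the same shares over all genes tested, 5.95% risen and 10.7% fallen. Their median log2 fold change was 2.01, or 1.77 with the 1 gene that had no count in uninduced libraries, *Zbtb16*, set at its lower bound. The call of *Zbtb16* was lost in the test against the fold threshold and in a fit of only the groups compared. It was also lost when any clone 1 library except stimulated replicate 3 was left out. *Fkbp5*, a co-chaperone of the glucocorticoid receptor, stood at 7.84, 8.47 and 7.61 CPM uninduced and at 472, 496 and 466 CPM stimulated (5.90, SE 0.102, adjusted p = 1.49e-23, edgeR). *Sgk1*, a kinase that regulates sodium transport and survival, went from 42.4, 45.1 and 46.0 CPM to 844, 814 and 817 CPM (4.21, SE 0.0674, adjusted p = 6.57e-28, edgeR). *Pdk4*, which holds pyruvate back from oxidation, went from 3.94, 4.34 and 4.35 CPM to 153, 163 and 172 CPM (5.27). The stimulated libraries lay well apart from the uninduced ones in each of these. The transcription factor *Klf9*, from 10.7, 11.4 and 10.7 CPM to 77.3, 84.1 and 84.6 CPM (2.91), and *Tsc22d3*, which codes for the glucocorticoid-induced leucine zipper (2.01), also rose, as did the metallothioneins *Mt1* (2.42) and *Mt2* (3.28). The clock gene *Per1*, at 43.1, 40.4 and 48.8 CPM uninduced and 61.7, 66.8 and 65.0 CPM stimulated, stayed under the fold threshold at 0.55. The sulfotransferase *Sult1a1* was the member that fell (-1.54).

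*Sgk1* is the member of this list whose promoter holds an exact palindromic glucocorticoid response element, and its sequence is shown for that reason. The motif searched was AGAACA and TGTTCT parted by 3 bases of any kind, on both strands, in a window from 250 bases before to 50 bases after each RefSeq start of GRCm38.p6, and 3 of 27025 genes with a promoter held it (0.0111%), as did 1 of the 19 listed genes with a promoter. The stretch below is chr10:21993661-21993755 on the plus strand, the capitals mark the motif, and it begins 189 bases before the start of *Sgk1*. A match describes the letters in this window and shows neither binding nor a cause of the rise.
Sgk1: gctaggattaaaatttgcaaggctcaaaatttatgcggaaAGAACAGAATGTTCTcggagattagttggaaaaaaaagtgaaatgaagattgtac

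Phosphodiesterases moved in both directions. Of 28 listed genes of the cAMP response and of cyclic nucleotide breakdown 25 were tested, and 10 rose, 4 fell and 11 were not called (median 0.41). *Pde4b*, a cAMP-specific phosphodiesterase, stood at 2.41, 2.15 and 2.64 CPM uninduced and at 53.3, 55.8 and 59.7 CPM stimulated (4.55, SE 0.103, adjusted p = 4.37e-25, edgeR), and *Pde4d* rose by 2.68. *Pde8a*, another cAMP-specific enzyme, went the opposite way, from 4.15, 3.75 and 3.16 CPM to 0.0532, 0.0737 and 0.228 CPM (-4.90), and *Pde4a* fell by 3.44 on the log2 scale. *Pde10a* overlapped between the groups, at 11.4, 11.8 and 12.8 CPM uninduced and at 9.90, 12.9 and 11.6 CPM stimulated (-0.06). Among immediate targets of cAMP signalling, *Rgs2*, a brake on G protein signalling, rose from 40.7, 41.4 and 39.4 CPM to 416, 463 and 444 CPM (3.44). The orphan receptor *Nr4a3* rose from 0.512, 0.375 and 0.466 CPM to 15.01, 14.9 and 13.6 CPM (4.98). *Crem* and *Nr4a1* of the same list stayed under the fold threshold and were not called. The coactivator *Ppargc1a*, itself a known target of cAMP in liver and muscle, fell (-4.16). In prostaglandin synthesis and its receptors, 14 of 18 listed genes were tested, and the inducible cyclooxygenase *Ptgs2* was the one that rose, from 30.4, 30.7 and 33.6 CPM to 81.6, 88.5 and 86.1 CPM (1.44), while *Ptges*, *Ptger1* and *Ptgir* fell and 10 were not called.

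*Areg*, which codes for the EGF receptor ligand amphiregulin and is known to answer to cAMP, holds a full cAMP response element close to its start, and it is shown as the member of the list that both rose and held the motif. It stood at 0.154, 0.161 and 0.0518 CPM uninduced and at 1.12, 0.959 and 1.05 CPM stimulated (3.03, SE 0.714, adjusted p = 0.000623, edgeR), so it stayed a low-level transcript. The motif TGACGTCA, searched on both strands of the same windows, was held by 2.03% of genes with a promoter, by 3.61% of tested ones, by 15 of the 565 risen ones (2.65%) and by 3 of the 22 listed ones. The stretch is chr5:91139498-91139585 on the plus strand, with the motif in capitals, which begins 61 bases before the start.
Areg: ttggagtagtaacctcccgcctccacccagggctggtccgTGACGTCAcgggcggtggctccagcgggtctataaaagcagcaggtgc

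Of the adipogenic transcription factors, those of the C/EBP family rose in clone 1 and *Pparg* was not called. Of 24 listed factors 23 were tested, and 9 rose, 4 fell and 10 were not called (median 0.32), with 6 rises and 6 falls when libraries were scaled to their totals. *Cebpb* stood at 280, 267 and 252 CPM uninduced and at 988, 1016 and 891 CPM stimulated (1.86, SE 0.0587, adjusted p = 4.86e-21, edgeR), and *Cebpd* went from 232, 216 and 209 CPM to 781, 766 and 699 CPM (1.77). *Cebpa* went from 55.0, 56.4 and 61.8 CPM to 125, 121 and 109 CPM, a log2 fold change of 1.03 that dropped below the threshold without uninduced replicate 1 and with scaling to library totals. The test against the fold threshold did not call *Cebpa* either. The groups did not overlap in any of the 3 C/EBP genes. *Pparg*, the factor that commits cells to the adipocyte fate, stood at 38.8, 39.5 and 33.2 CPM uninduced and at 35.6, 36.2 and 33.3 CPM stimulated (-0.09, SE 0.0863, adjusted p = 0.427, edgeR), with overlapping groups. *Srebf1*, which drives fatty acid synthesis, rose from 93.5, 90.5 and 87.3 CPM to 198, 205 and 205 CPM (1.17). *Zfp423*, a marker of committed preadipocytes, and *Klf4*, an early inducer of *Cebpb*, fell (-1.52 and -2.21).

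Genes of lipid storage and fatty acid synthesis rose, while several hallmark adipocyte transcripts stayed near 0. Of 37 listed genes 30 were tested, and 16 rose (53.3%), 1 fell, which was *Apoe*, and 13 were not called (median 1.06). *Scd1*, the desaturase that makes monounsaturated fatty acids, stood at 253, 246 and 308 CPM uninduced and at 2480, 2715 and 2369 CPM stimulated (3.23, SE 0.0701, adjusted p = 2.19e-21, edgeR). *Fasn*, fatty acid synthase, went from 578, 545 and 589 CPM to 1591, 1998 and 1803 CPM (1.66), and *Dgat1*, which completes triglycerides, from 36.0, 31.2 and 33.6 CPM to 232, 215 and 207 CPM (2.70). Stimulated levels exceeded uninduced levels in every library of these 3 genes. The lipid chaperone *Fabp4* went from 0.768, 0.965 and 0.777 CPM to 16.3, 25.0 and 19.9 CPM (4.61). *Plin1*, the perilipin of mature fat droplets, went from 0.307, 0.0536 and 0.0518 CPM to 7.56, 9.59 and 6.19 CPM (5.75, SE 0.624, adjusted p = 1.25e-08, edgeR). *Cidec*, a lipid droplet fusion protein, stood at 0, 0 and 0.828 CPM uninduced, where the one value above 0 lies in the library with hepatocyte transcripts, and at 6.39, 7.96 and 8.34 CPM stimulated. Its call (4.74) was not made by DESeq2 (adjusted p = 0.148) and was made without that library. *Plin4* stood at 169, 201 and 176 CPM uninduced and at 139, 165 and 136 CPM stimulated (-0.31) and was not called. *Adipoq* and *Lpl* stayed below 0.5 CPM in every clone 1 library and were not called.

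The sterol branch of lipid synthesis did not move past the threshold. None of the 24 tested of 25 listed sterol synthesis genes was called in the response of clone 1 by edgeR, with a median log2 fold change of 0.13. Of fatty acid oxidation and peroxisome genes, 4 of 27 tested rose and none fell (median 0.21), with 3 falls beside the 4 rises when libraries were scaled to their totals, among them the carnitine palmitoyltransferase *Cpt1a* (1.51), *Acadm* (1.48) and *Ucp2*, from 0.154, 0.215 and 0.155 CPM to 3.57, 3.06 and 3.64 CPM (4.25). Among glycolysis genes 4 of 22 tested rose, including *Hk2* (2.30) and *Pfkfb3* (3.09), and *Eno2* fell (-2.22). In the insulin and IGF axis 6 of 14 tested genes rose and 2 fell. *Irs2*, an adaptor of the insulin receptor, rose from 17.5, 18.1 and 14.5 CPM to 120, 156 and 141 CPM (3.06), *Igfbp4* rose from 4.87, 5.74 and 7.40 CPM to 40.04, 37.6 and 34.8 CPM (2.64), and the ligand *Igf1* fell (-1.37).

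**Figure D3:**
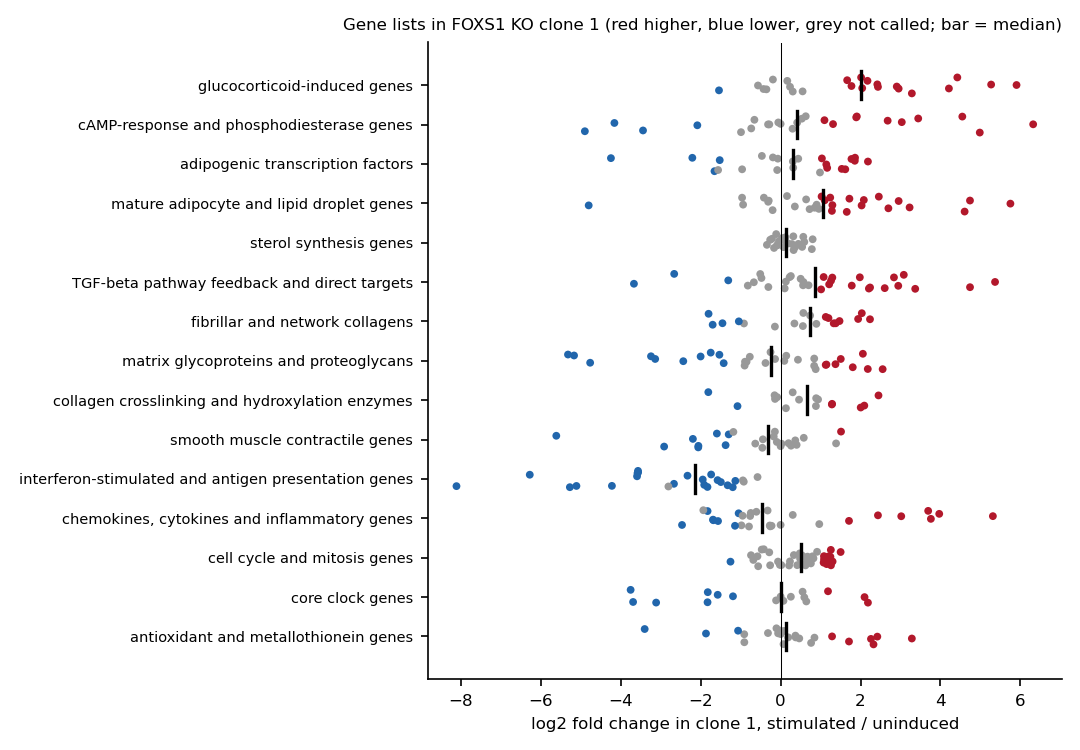
Log2 fold change in clone 1 of each tested gene of 15 lists, 1 point per gene (red, rose; blue, fell; grey, not called) with the median as a bar. Glucocorticoid-induced genes lie mostly to the right of 0, with 14 rises among 23, and interferon-stimulated genes to the left, with 20 falls among 24.

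Genes of the TGF-β pathway were raised in clone 1, including its own inhibitors. All 32 listed genes were tested, and 16 rose, 3 fell and 13 were not called (median 0.86). *Pmepa1*, a membrane protein that sequesters SMADs, stood at 23.1, 22.2 and 20.6 CPM uninduced and at 939, 914 and 866 CPM stimulated (5.37, SE 0.0652, adjusted p = 1.35e-31, edgeR), and *Skil*, a SMAD corepressor, went from 6.61, 6.17 and 5.70 CPM to 59.3, 66.5 and 65.0 CPM (3.37). Uninduced and stimulated libraries were far apart in both of these direct targets. The inhibitory *Smad7* rose by 1.21, a call lost with scaling to library totals and in the test against the fold threshold. Of the ligands, *Tgfb3* rose from 22.7, 26.7 and 23.1 CPM to 203, 211 and 201 CPM (3.08) and *Tgfb1* rose by 1.29, while *Tgfb2* fell (-1.31). The latent TGF-β binding protein *Ltbp1* fell (-2.66) and *Ltbp2* (1.98) and *Ltbp3* (1.08) rose. *Id2*, a target of the related BMP pathway that TGF-β represses, went from 19.1, 20.4 and 20.9 CPM to 1.54, 1.66 and 1.503 CPM (-3.67).

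The matrix genes moved in both directions. Of 19 tested collagen genes 8 rose and 4 fell (median 0.74). The basement membrane collagens *Col4a1* and *Col4a2* rose by 2.03 and 2.24, the fibril collagens *Col5a1* and *Col5a2* by 1.20 and 1.47 and *Col12a1* by 1.94, whereas *Col1a2* (0.56) and *Col3a1* (0.74) stayed under the fold threshold. The microfibrillar collagen *Col6a1* went from 4415, 4542 and 4377 CPM to 1611, 1631 and 1620 CPM (-1.46, SE 0.0359, adjusted p = 3.37e-24, edgeR) and *Col6a2* fell with it (-1.80). Several small leucine-rich proteoglycans, which regulate fibril assembly, fell. *Lum* went from 17.6, 17.9 and 16.1 CPM to 0.319, 0.442 and 0.638 CPM (-5.17), *Dcn* from 95.3, 94.2 and 90.8 CPM to 8.52, 11.0 and 12.1 CPM (-3.14) and *Ogn* from 1288, 1287 and 1393 CPM to 126, 142 and 150 CPM (-3.24), while *Bgn* (0.84), *Aspn* (-0.89) and *Prelp* (-0.38) of that family were not called. Over the whole list of matrix glycoproteins and proteoglycans, 8 of 31 rose and 10 fell (median -0.25). The provisional matrix genes *Tnc* (2.55) and *Vcan* (2.18) and the elastic fibre genes *Fbn1* (1.15, a call lost with scaling to library totals and in the test against the fold threshold) and *Fbln5* (2.06) were among the rises, and *Eln* (-1.75) and *Fbn2* (-2.002) among the falls. *Fn1*, fibronectin, was not called (0.88). Of 16 crosslinking and hydroxylation enzymes 5 rose and 2 fell, led by *Plod2*, which hydroxylates collagen telopeptides, from 171, 169 and 178 CPM to 905, 928 and 996 CPM (2.45), and *Lox*, from 1842, 1725 and 1939 CPM to 4525, 4524 and 4398 CPM (1.29).

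The smooth muscle contractile genes, which mark myofibroblasts, mostly fell or stayed under the threshold. Of 26 listed genes 24 were tested, and 1 rose, 8 fell and 15 were not called (median -0.31). *Acta2*, smooth muscle α-actin, stood at 415, 414 and 426 CPM uninduced and at 316, 302 and 306 CPM stimulated. The stimulated libraries lay below every uninduced library, and the log2 fold change of -0.44 (adjusted p = 1.31e-08, edgeR) was under the fold threshold. The tropomyosin *Tpm1* went from 484, 498 and 471 CPM to 120, 113 and 115 CPM (-2.06, SE 0.0533, adjusted p = 1.06e-23, edgeR), and *Mylk*, myosin light chain kinase, from 42.2, 46.4 and 41.4 CPM to 10.5, 11.1 and 9.52 CPM (-2.06). *Tpm2* (-1.38) and *Des* (-1.30) also fell. The actin crosslinker *Actn4* was the one rise, from 288, 307 and 283 CPM to 869, 825 and 809 CPM (1.51).

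*Myl9*, the regulatory light chain of smooth muscle myosin, stood at 0.307, 0.161 and 0.362 CPM uninduced and had no count in any stimulated clone 1 library, which is at least 6.26-fold lower with a floor of 3 counts over the group. Its mean level in WT was 40.1 CPM uninduced and 107 CPM stimulated. Its promoter is shown because it holds a CArG box, the element that serum response factor binds in contractile genes. The CArG box was searched as a pattern of bases on both strands of the same windows. It was held by 1.81% of genes with a promoter, by 1.58% of tested ones and by 19 of the 1119 fallen ones (1.70%). Of the 21 listed ones 4 (19.0%) held it, the others beside *Myl9* being *Vcl*, *Ldb3* and *Srf*, of which *Ldb3* fell. The stretch is chr2:156775263-156775352 on the plus strand, with the element in capitals from 161 bases before the start.
Myl9: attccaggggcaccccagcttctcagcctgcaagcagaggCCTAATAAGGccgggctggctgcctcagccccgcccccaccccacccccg

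Interferon-stimulated and antigen presentation genes fell together. Of 27 listed genes 24 were tested, and 20 fell (83.3%, against 10.7% of all genes tested), none rose and 4 were not called (median -2.14). *Ifit3*, an interferon-induced antiviral protein, stood at 34.2, 32.0 and 41.1 CPM uninduced and at 0.532, 0.664 and 0.137 CPM stimulated (-6.28), a value that near-identical *Ifit3b* may share. *Gbp2*, a guanylate-binding protein, went from 12.0, 10.4 and 10.9 CPM to 0.160, 0.147 and 0.547 CPM (-5.28). *Tap1*, the peptide transporter of antigen presentation, went from 40.8, 39.3 and 37.5 CPM to 3.30, 3.87 and 2.64 CPM (-3.57, SE 0.138, adjusted p = 1.8e-19, edgeR), and the immunoproteasome subunit *Psmb9* fell by 5.11 on the log2 scale. *B2m*, the invariant class I light chain, stood at 634, 621 and 679 CPM uninduced and at 431, 431 and 433 CPM stimulated (-0.58) and was not called.

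Cytokines and chemokines split. Of 28 tested genes 7 rose, 7 fell and 14 were not called (median -0.47), with 12 falls when libraries were scaled to their totals. *Il6* rose from 2.66, 1.23 and 1.97 CPM to 23.4, 27.1 and 25.8 CPM (3.69), alongside *Lif* above and the interleukin-33 receptor *Il1rl1* (3.02). *Ccl2*, a monocyte attractant, fell from 64.5, 60.5 and 67.9 CPM to 19.3, 19.0 and 21.8 CPM (-1.68), as did the neutrophil attractant *Cxcl5* (-1.69) and the acute phase gene *Saa3* (-1.83). The groups did not overlap in *Il6*, *Ccl2* or *Saa3*.

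Some genes of mitosis rose in clone 1, and most members of the cell cycle list were not called. Of 39 tested genes of the cell cycle list 11 rose, 1 fell and 27 were not called (median 0.52). The count of rises was 5 with scaling to library totals, 4 for the test against the fold threshold and 9 without stimulated replicate 3. *Ube2c*, the ubiquitin-conjugating enzyme of the anaphase promoting complex, stood at 22.03, 22.7 and 21.9 CPM uninduced and at 62.0, 56.5 and 70.4 CPM stimulated (1.502, SE 0.0991, adjusted p = 7.3e-14, edgeR), and *Top2a* went from 87.9, 94.6 and 94.9 CPM to 204, 228 and 250 CPM (1.30). The replication helicase subunits *Mcm2* to *Mcm6* lay between -0.26 and -0.74, *Mcm7* at 0.21 and *Pcna* at 0.02, and none of them was called. *Mki67* overlapped between groups, at 22.7, 30.9 and 21.2 CPM uninduced and 29.5, 43.2 and 53.3 CPM stimulated. *Ccnd1*, the cyclin that carries growth factor signals into the cell cycle, fell from 93.3, 93.1 and 89.5 CPM to 10.3, 11.3 and 12.1 CPM (-3.03, SE 0.0666, adjusted p = 1.93e-25, edgeR).

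The promoter of *Ube2c* is shown because it holds a cell cycle homology region, an element common in genes expressed late in the cell cycle. The motif TTTGAA, searched on both strands, was held by 20.2% of genes with a promoter, by 14.2% of tested ones and by 90 of the 565 risen ones (15.9%). Of the 32 listed ones 17 (53.1%) held it, of which 7 rose. In *Ube2c* it lies on the opposite strand, so that the capitals below read as its reverse complement, and it begins 29 bases before the start. The stretch is chr2:164769860-164769928 on the plus strand.
Ube2c: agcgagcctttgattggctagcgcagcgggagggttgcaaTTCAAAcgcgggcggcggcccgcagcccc

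Genes of the circadian clock moved in both directions. Of 17 tested genes of that list 3 rose, 7 fell and 7 were not called (median 0.00). *Arntl*, which codes for BMAL1, rose from 8.15, 7.19 and 9.99 CPM to 34.5, 40.6 and 33.4 CPM (2.1005). *Dbp*, a direct output of BMAL1 and CLOCK, fell from 41.5, 40.3 and 39.7 CPM to 2.82, 3.39 and 3.10 CPM (-3.69, SE 0.143, adjusted p = 1.85e-19, edgeR). *Per3* fell likewise (-3.12), and *Per2* rose (1.19), a call lost with scaling to library totals and in the test against the fold threshold. The labels give no clock time of harvest, so a phase of the culture and an effect of the stimuli cannot be told apart.

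Of 24 tested genes of the Wnt list 9 rose and 6 fell, with the secreted antagonists split between *Sfrp1* (2.66), from 9.73, 9.98 and 10.1 CPM to 62.6, 64.0 and 61.2 CPM, and *Sfrp2* (-5.60), from 14.4, 17.97 and 15.8 CPM to 0.426, 0.221 and 0.364 CPM. Among growth factors and their receptors 7 of 28 rose, including *Vegfa* (2.74) and *Fgf2* (2.60), and 5 fell. YAP and TEAD targets gave 6 rises and 3 falls among 24 genes, stress response genes 5 and 2 among 29, antioxidant and metallothionein genes 6 and 3 among 24, p53 targets 3 and 1 among 21 and mesenchymal transcription factors 4 and 4 among 19. Rises made up 25.0%, 17.2%, 25.0%, 14.3% and 21.1% of these lists in that order, against 5.95% of all genes tested. Falls made up 12.5%, 6.90%, 12.5%, 4.76% and 21.1%, against 10.7% of all genes tested. Ribosome biogenesis and MYC genes gave 3 rises among 26, which were *Myc* (1.52), from 39.3, 44.0 and 37.6 CPM to 110, 128 and 107 CPM, *Nop56* and *Polr1a*, and 1 rise with scaling to library totals. Of matrix proteases and inhibitors 4 of 17 rose and 3 fell, *Timp1* (2.49) and *Mmp9* (-4.29) among them. Scaled to library totals, the split was 7 rises and 9 falls in the Wnt list, 2 and 6 among proteases and inhibitors and 2 and 3 among p53 targets, so their balance turned. Of 22 tested forkhead genes 7 rose, *Foxs1* included, and 1 fell. *Foxf2* went from 13.4, 12.7 and 11.6 CPM to 86.5, 86.2 and 76.7 CPM (2.73), and *Foxo6* fell (-2.68).

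**Figure D4:**
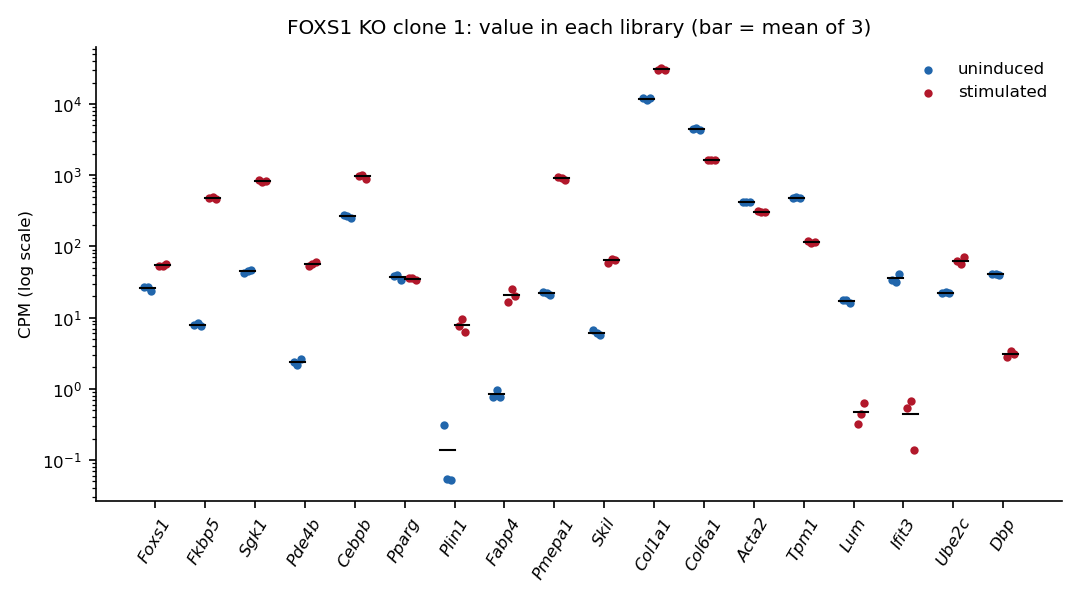
Levels of 18 genes in the 6 clone 1 libraries, in CPM on a log axis, 1 point per library (blue, uninduced; red, stimulated) with the mean of 3 as a bar. Stimulated libraries lie apart from uninduced ones for *Fkbp5*, *Pmepa1* and *Lum*, whereas those of *Pparg* overlap.

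To ask which changes clone 1 shared with WT cells, the called genes were compared. Of the 852 genes that rose in clone 1, 381 also rose in WT (44.7% of the clone 1 rises and 42.6% of the 895 WT rises) and 38 fell there. Of the 1539 that fell, 1011 also fell in WT (65.7% of the clone 1 falls and 51.7% of the 1954 WT falls) and 17 rose there. In WT, rises made up 6.25% and falls 13.6% of the genes tested. With clone 2 the sharing was 596 rises (70.0% of those of clone 1 and 64.4% of those of clone 2) and 1086 falls (70.6% and 67.7%), where rises made up 6.46% and falls 11.2% of the genes tested in clone 2. Across the 14317 genes tested the log2 fold changes of clone 1 correlated with those of WT at Pearson's r 0.657 and with those of clone 2 at 0.789, as a description over genes, which are not independent replicates. These responses share no libraries.

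The size of the response itself differed from that in WT in 1261 genes (8.81% of those tested) by a test of the difference in edgeR, with 765 differences above 0 and 496 below 0. Of the 765, 262 had risen in clone 1 and 111 had fallen, the latter all genes that fell in WT too. The other 392 were not called in clone 1, and 286 of these had fallen in WT. Of the 496, 231 had fallen in clone 1 and 220 were not called there, of which 148 had risen in WT. The difference from clone 2 passed the same threshold in 433 genes (3.02%), 221 above 0 and 212 below 0.

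By list, the differences from WT lay above 0 for glucocorticoid-induced genes (15 called higher and 1 lower of 23), adipogenic factors (11 and 0 of 23) and lipid storage genes (19 and 0 of 30), against 5.34% called higher and 3.46% lower over all genes. They lay below 0 for contractile genes (0 and 11 of 24) and for matrix glycoproteins and proteoglycans (2 and 14 of 31). In the TGF-β list 2 were called higher and 3 lower of 32. The median response of the contractile genes was 0.70 in WT and -0.31 in clone 1, that of the lipid storage genes -0.37 and 1.06, and that of the glucocorticoid-induced genes 0.29 and 2.01, whereas that of the TGF-β list was 0.75 and 0.86. In clone 2 these medians were -0.08, 0.26, 1.71 and 0.98. Against clone 2, the response of clone 1 was called higher in 6 and lower in 0 of 30 lipid storage genes. For glucocorticoid-induced genes these counts were 3 and 0 of 23, for adipogenic factors 2 and 1 of 23. For contractile genes they were 1 and 1 of 24, and for matrix glycoproteins and proteoglycans 4 and 4 of 31.

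*Plin4*, a perilipin that coats lipid droplets, gave the largest difference from WT among the genes named here for which a fold is given. Its mean level fell from 42.7 to 0.122 CPM in WT (log2 fold change -8.39) and stayed under the fold threshold in clone 1, so the responses differed by 8.08 (SE 0.269, adjusted p = 2.89e-17, edgeR). *Serpina3n*, whose WT means were 6.48 and 5.07 CPM, differed by 6.39. *Hp*, the haemoglobin-binding protein haptoglobin, went from 66.8, 60.3 and 70.5 CPM to 901, 853 and 754 CPM in clone 1 (3.66) and from a mean of 56.1 to 12.5 CPM in WT (-2.16), a difference of 5.82 (SE 0.120, adjusted p = 1.83e-20, edgeR). The kinase *Wnk4* stood at 43.5, 47.4 and 41.8 CPM uninduced and at 73.3, 86.9 and 77.8 CPM stimulated in clone 1 and fell from a mean of 30.7 to 0.934 CPM in WT, a difference of 5.86. In *Hp* the genotypes thus moved in opposite directions, and in *Wnk4* the fall was called in WT and no change was called in clone 1.

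Differences below 0 included 2 matrix genes. *Fmod*, the proteoglycan fibromodulin, went from 35.5, 33.8 and 37.5 CPM to 15.5, 14.2 and 10.2 CPM in clone 1 (-1.42) and rose from a mean of 6.997 to 92.9 CPM in WT (3.72), a difference of -5.14 (SE 0.170, adjusted p = 8.19e-18, edgeR). *Col8a2*, a short-chain collagen, went from 7.38, 8.42 and 8.44 CPM to 0.958, 1.44 and 1.41 CPM in clone 1 and rose from 56.7 to 218 CPM in WT, a difference of -4.58. *Acta2* rose from a mean of 274 to 2036 CPM in WT (2.89), and the responses differed by -3.34 (adjusted p = 3.78e-24, edgeR). The direct TGF-β target *Pmepa1* gave 5.37 in clone 1 and 5.53 in WT, a difference of -0.16 (SE 0.0826, adjusted p = 0.151, edgeR), and *Skil* differed by 0.30 (SE 0.120).

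Other genes chosen after their values were seen differed from WT as follows. The glucocorticoid-induced *Fkbp5*, *Sgk1* and *Klf9* differed by 2.82, 2.39 and 3.03, with *Klf9* at a mean of 37.0 CPM uninduced and 34.1 CPM stimulated in WT. *Scd1* differed by 2.72, *Fasn* by 1.29 and *Col4a1* by 1.09, all higher in clone 1, and *Tpm1* by -1.67. *Cebpb* rose in both, and its difference of 0.80 was under the fold threshold.

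**Figure D5:**
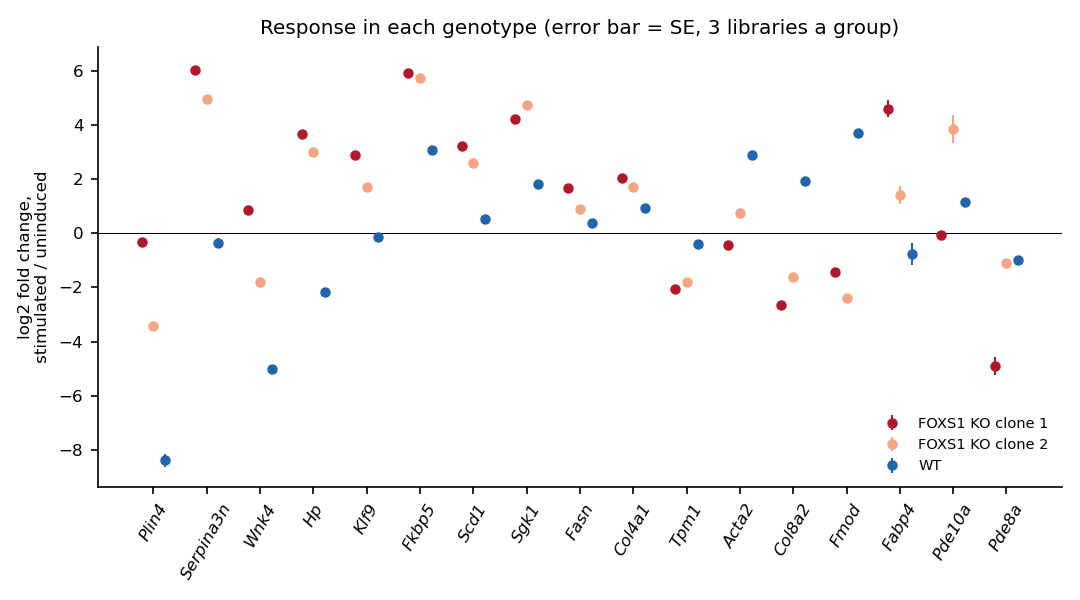
Log2 fold changes upon stimulation in clone 1 (red), clone 2 (orange) and WT (blue) for 17 genes whose response differed, with the SE as error bar. In *Hp* WT stands at -2.16 and clone 1 at 3.66, while for *Fmod* WT stands at 3.72 and clone 1 at -1.42.

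Between the clones, *Plin4* fell in clone 2 (-3.43) and was not called in clone 1, a difference of 3.11 (adjusted p = 1e-13, edgeR), and *Fabp4* rose by 4.61 in clone 1 against 1.40 in clone 2, a difference of 3.20 (adjusted p = 1.36e-05, edgeR). *Cebpa* rose in clone 1 (1.03) and stood at -0.21 in clone 2, a difference of 1.24. The lipogenic factor *Srebf1* differed by 1.11. Of the 23 tested adipogenic factors, 2 were called above clone 2 and 1 below, the latter not reported by name. *Pde10a*, with no change called in clone 1, rose from a mean of 0.0517 to 0.764 CPM in clone 2, a difference of -3.91, and *Pde8a* gave -4.90 in clone 1 and -1.09 in clone 2, a difference of -3.81. The integrin subunit *Itgb8*, under 1 CPM in all clone 1 libraries, differed by -3.16. *Col8a1* rose in clone 1 (1.13), a call lost with scaling to library totals and in the test against the fold threshold, and fell in clone 2 (-1.57) and WT (-1.37). *Thbs2*, an antiangiogenic thrombospondin, stood at 21.6, 22.8 and 23.7 CPM uninduced and at 18.05, 19.5 and 19.5 CPM stimulated in clone 1. In clone 2 its means were 0.999 and 0.0218 CPM, and as 1 of these groups held no more than 3 counts no fold is given for the difference. Of the cell cycle list, whose median was -0.17 in clone 2, the response of clone 1 was called above that of clone 2 in 8 genes, of which 5 had risen in clone 1, and below it in none.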

How the data were processed

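Counts per gene were those the authors deposited, raw counts for 54532 genes in 18 libraries of poly(A) RNA, sequenced as paired-end reads and mapped to GRCm38 with HISAT2, per the labels and the methods of the study. How reads were counted, with which annotation and whether by strand, is not given in the sources used here, so antisense and overlapping genes can share reads.

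Genes were kept by filterByExpr (minimum count 10, by group), which left 14317. Libraries were scaled by TMM, and a model with 1 mean per group over all 6 groups was fitted in edgeR 4.0.16 (glmQLFit, robust; glmQLFTest) under R 4.3.3. The comparisons were stimulated with uninduced cells within a genotype, and the difference of that response between clone 1 and WT or clone 2. Calls needed a Benjamini-Hochberg adjusted p below 0.05 over all genes tested and an absolute log2 fold change above 1. Simulated data held 200 changed genes among 14317, split evenly between rises and falls and placed in stimulated clone 1 only. The response of clone 1 was called for 82% of genes changed by 1.5 log2 units and 97% of those changed by 3, with 2 false calls. The difference from WT was called for 74% and 90%, and that from clone 2 for 77% and 90%, with 4 false calls each. With so few and balanced changes, the simulation cannot show errors from the choice of scaling. A floor of 3 counts over a group was used where a group had none, which covers counting error only.

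The members, the gene lists and the comparisons were chosen with earlier results of these data known. Named genes were *Foxs1*, the largest rises, falls and changes in CPM, the largest differences from WT and clone 2, and selected members of each list. A further 9 genes of the differences and the 14 hepatocyte genes were chosen after their values were seen. Replicate numbers did not pair the libraries, with correlations of same-numbered clone 1 deviations of 0.002, -0.027 and -0.039. Alternatives were DESeq2 1.42.0, DESeq2 size factors, library totals, other filters, only the groups compared, a replicate block, glmTreat, no fold threshold and each library left out. Some listed genes are counted in their lists and not reported by name here.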

Additional observations from a re-analysis of the deposited data

Results flagged for a closer look

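The responses listed here were singled out because the difference between genotypes itself passed the test in edgeR. The response of clone 1 differed from that of WT in 1261 genes and from that of clone 2 in 433 genes. Above WT in log2 units lay *Plin4* by 8.08, *Serpina3n* by 6.39, *Wnk4* by 5.86, *Hp* by 5.82, *Klf9* by 3.03, *Fkbp5* by 2.82, *Scd1* by 2.72, *Sgk1* by 2.39, *Fasn* by 1.29 and *Col4a1* by 1.09. Below WT lay *Fmod* at -5.14, *Col8a2* at -4.58, *Acta2* at -3.34 and *Tpm1* at -1.67. Against clone 2 the differences were 3.20 for *Fabp4*, 3.11 for *Plin4*, -3.91 for *Pde10a*, -3.81 for *Pde8a* and -3.16 for *Itgb8*. In *Itgb8* the clone 1 values rest on levels below 1 CPM. Group means below 1 CPM also enter other differences, by the values given above. These are *Plin4* and *Wnk4* against WT, in stimulated WT cells, and *Pde10a*, in both groups of clone 2. *Pde8a* was as low in stimulated clone 1 cells, and *Fabp4* in uninduced ones.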

How the results depend on the processing

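Clone 1 called 2391 genes in its response, 1261 in the difference from WT and 433 in the difference from clone 2. The test against the fold threshold (glmTreat) gave 1431, 543 and 89, and no fold threshold gave 7803, 4526 and 2069. Leaving out each library in turn gave 2272 to 2486, 1207 to 1423 and 383 to 479. DESeq2 gave 2426, 1355 and 475. Scaling to library totals gave 2739 in the response, 617 rises and 2122 falls in place of 852 and 1539. The replicate numbers share only a number, and with a replicate block the counts were 2358, 1232 and 416. One value reversed, the difference of *Ptgr2* from WT, which ran from -5.25 to 0.43 with each library left out, the latter without clone 1 uninduced replicate 3, the library that held all of its clone 1 counts. Of 35 lists, the count of calls moved by over 1.5 times in 9 with glmTreat, in 4 with library totals and in 23 with no fold threshold. Of the named genes, glmTreat lost the calls of 33 gene values and scaling to library totals changed 18. At these depths, genes below about 0.5 CPM rest on a few counts, and changes there were read from the values of each library.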

Other observations

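Deviations of stimulated clone 1 libraries from their group mean varied with gene length. Over 8683 genes, the correlation with length was -0.477 in replicate 1, 0.317 in replicate 2 and 0.233 in replicate 3, against -0.0997, 0.107 and -0.0171 in the uninduced libraries, as a description across genes. The log2 fold change of the response correlated with length at -0.0169. *Gapdh*, often used to normalise, was not constant within groups and stood at 6.30, 43.3 and 6.26 CPM uninduced and at 8.68, 98.0 and 80.4 CPM stimulated. How its reads were counted, and whether near-identical copies share them, is not given. The source of this spread was not tested, and these values are not read as its level or its change in the cells.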
